A study of Homo sapiens with 7 samples.

Results

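The 10 genes described here are CDKN1A, MDM2, SESN1, TP53INP1, GDF15, BTG2, ZMAT3, RRM2B, FDXR and CCNG1, which are textbook transcriptional targets of the tumour suppressor p53. They are 10 of 33117 listed genes, and each of them is among the 16724 genes that averaged at least 1 TPM (a transcript abundance corrected for length, with the same sum in every library). RNA was sequenced from 769-P, an established human line derived from a clear cell carcinoma of the kidney, in 7 libraries. These comprised 2 libraries of Lat-M2 cells, 2 of Lat-M1 cells and 3 of PA cells, all grown in RPMI medium with fetal bovine serum and without any treatment named in the labels. Lat-M cells are described in the labels as latent metastatic. The labels do not expand PA, and do not say what the first number after Lat-M stands for, how the Lat-M cells were derived, or whether the libraries came from separate cultures. The p-values below therefore reflect no more than the variation among these libraries, and that may be technical.

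The genes were chosen by symbol because they were known to be lower together in Lat-M2 than in PA cells. Their values in the comparisons that include Lat-M2 are accordingly a description without a test. Lat-M1 was not used in the choice, so the members are tested in Lat-M1 against PA, although both comparisons share the 3 PA libraries. Pathway genes outside the 10 are tested in every comparison.

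As background, p53 is a transcription factor that is held at low levels by the ubiquitin ligase MDM2 and accumulates when DNA is damaged or cells are stressed. It binds response elements made of adjacent copies of a short palindromic motif and induces genes that halt the cell cycle, repair DNA, limit metabolism or start apoptosis. Because MDM2 is itself a target, the pathway feeds back on itself. The data hold RNA levels only, and protein was not examined here.

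Promoter sequences are shown for CDKN1A, the member with the lowest Lat-M2 to PA ratio, and for MDM2 and SESN1, 2 members that followed CDKN1A across libraries and that hold a match to the p53 motif. They are windows of 300 bases, 250 before and 50 after a transcription start annotated by RefSeq on GRCh38.p14, written 5′ to 3′ along the gene's own strand. Capitals mark matches to the p53 response element, counted as 2 adjacent decamers of the p53 half-site consensus, with the central C and G of each decamer kept and at most 3 mismatches over the 20 bases. The motif is its own reverse complement, so 1 search covers both strands. The CDKN1A window lies at chr6:36678464-36678763 on the plus strand, the MDM2 window at chr12:68808767-68809066 on the plus strand, and the SESN1 window at chr6:109008939-109009238 on the minus strand.
CDKN1A: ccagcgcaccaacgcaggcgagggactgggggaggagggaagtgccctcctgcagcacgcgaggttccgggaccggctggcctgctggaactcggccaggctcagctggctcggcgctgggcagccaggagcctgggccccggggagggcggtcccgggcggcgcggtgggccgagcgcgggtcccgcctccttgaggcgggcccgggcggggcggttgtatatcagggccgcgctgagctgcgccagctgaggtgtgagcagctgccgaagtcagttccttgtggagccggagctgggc
MDM2: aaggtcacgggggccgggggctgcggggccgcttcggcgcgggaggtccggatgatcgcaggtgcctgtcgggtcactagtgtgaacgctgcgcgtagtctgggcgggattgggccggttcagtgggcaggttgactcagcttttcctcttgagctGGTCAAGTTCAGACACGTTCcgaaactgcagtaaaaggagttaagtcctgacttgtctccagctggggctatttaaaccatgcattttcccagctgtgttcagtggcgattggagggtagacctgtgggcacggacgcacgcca
SESN1: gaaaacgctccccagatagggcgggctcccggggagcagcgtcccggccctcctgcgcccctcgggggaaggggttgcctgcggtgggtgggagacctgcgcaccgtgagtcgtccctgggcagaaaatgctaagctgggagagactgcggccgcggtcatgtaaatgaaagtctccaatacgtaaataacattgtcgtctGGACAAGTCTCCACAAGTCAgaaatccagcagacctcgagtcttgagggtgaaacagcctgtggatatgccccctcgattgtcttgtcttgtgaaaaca

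The MDM2 window is that of a downstream start, among starts that lie within the gene and are known as its p53-responsive promoter, and its match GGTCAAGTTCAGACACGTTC ran from base -94 to base -75 relative to the start with 2 mismatches. In SESN1 the match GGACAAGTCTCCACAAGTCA ran from base -49 to base -30 with 3 mismatches, and its first decamer, GGACAAGTCT, had none. FDXR had the match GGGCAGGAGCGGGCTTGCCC with 3 mismatches from base -21 to base -2 of its first window (chr17:74872945-74873244, minus strand), and its second decamer, GGGCTTGCCC, had none. GDF15 had the match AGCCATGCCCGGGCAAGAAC with 3 mismatches from base 29 to base 48 after its start (chr19:18385908-18386207, plus strand). The search covered 16 windows of 8 members, and 5 windows of 4 genes held a match, the pair of overlapping MDM2 windows included. Of 35116 promoters of the same length, 1.12% held a match with at most 3 mismatches, 0.285% one with at most 2, and 6.63% an exact decamer. No match lay in the windows of CDKN1A, BTG2, ZMAT3 or CCNG1, which says only that these letters are not within these bases. The members outside the search were TP53INP1 and RRM2B.

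**Figure D1:**
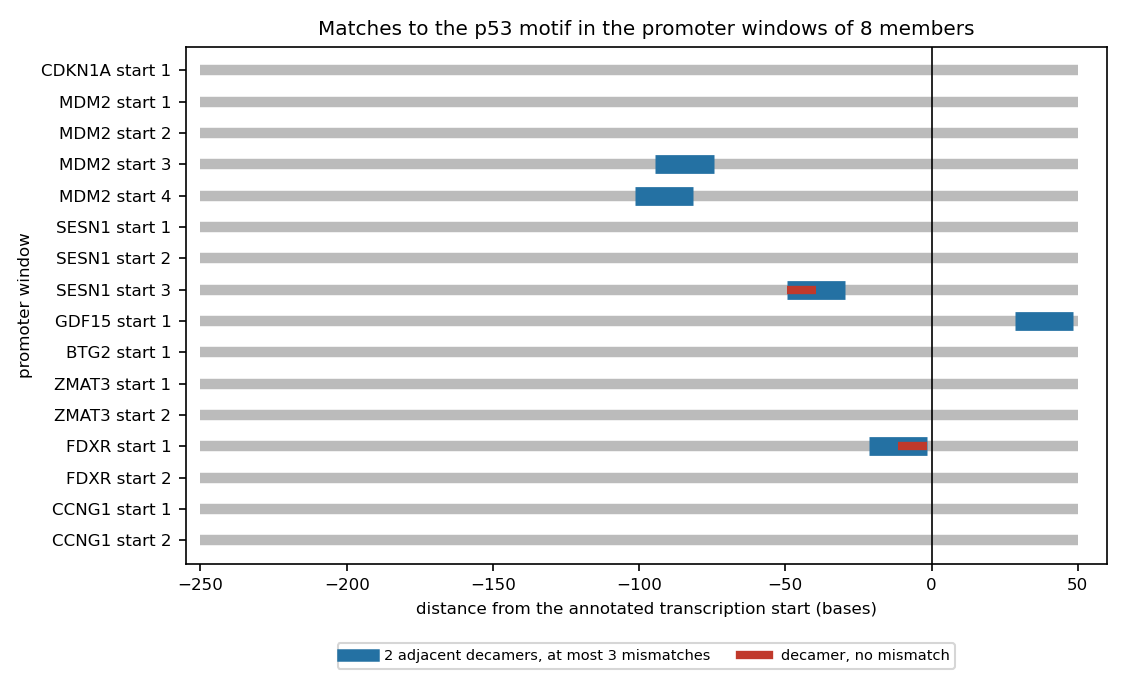
Matches to the p53 motif in the promoter windows of the members, 1 row per annotated start, with distance from the start in bases on the x axis. Matches of 2 adjacent decamers with at most 3 mismatches are drawn separately from exact decamers, and they lie in the windows of MDM2, SESN1, GDF15 and FDXR.

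Across the libraries the members spanned a wide range of abundance. CCNG1 was the most abundant member in every group, above 98.2% of the tested genes by its mean level, and CDKN1A and MDM2 followed above 96.7% and 96.2% of them. SESN1, near the middle of the tested genes, was above 49.3% of them. The order of CDKN1A and MDM2 differed between groups. In Lat-M2, MDM2 stood above CDKN1A, in Lat-M1 below it, and in PA their libraries overlapped. Neighbours in the order whose libraries overlapped were BTG2 and FDXR in Lat-M2, ZMAT3 and GDF15 in Lat-M1, and BTG2 and FDXR again in PA. The summed TPM of the 10 genes was 788.5 and 720.1 in Lat-M2, 1256 and 1315 in Lat-M1, and 896.7, 862 and 908 in PA.

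TPM shares a fixed sum among all RNAs, and 4 abundant structural RNAs (RN7SL1, RN7SL2, RN7SK and RMRP, parts of the signal recognition particle, 7SK and an RNase) took 22.9 to 27.7% of it in Lat-M2, 18.6 to 21.9% in Lat-M1 and 29.5 to 31.8% in PA. Relative to PA, the median of all tested genes was displaced by 0.14 on the log2 scale in Lat-M2 and by 0.16 in Lat-M1. Values are therefore also given after dividing each library by a median ratio computed over 16086 genes (factors of 0.927 to 1.096), which brought these medians to -0.0005 in Lat-M2 and 0.004 in Lat-M1. Fold changes are differences of log2(TPM + 1), which understates changes of the lower members such as SESN1. Of the markers of other cell types, PTPRC of leukocytes, CDH5 of endothelium and PDGFRA, DCN, LUM, COL3A1 and THY1 of fibroblasts were at or near 0 in every library. The summed TPM of the leukocyte list was 41.9 to 44.4 in Lat-M2, 18.9 to 20.3 in Lat-M1 and 47 to 50.2 in PA, mostly CD68 (39.7 to 41.8, 14.1 to 15.5 and 45.6 to 48.2 TPM). ITGAM of the same list went the other way in Lat-M1. It had 2.54 and 2.21 TPM in Lat-M2, 4.74 and 4.74 TPM in Lat-M1, and 1.36, 1.84 and 1.71 TPM in PA. The sum of the fibroblast list was 6.93 to 8.91 in Lat-M2, 22 to 23.9 in Lat-M1 and 5.2 to 5.56 in PA, mostly COL1A1 in Lat-M1 (19.2 and 20.6 TPM) and RGS5 in PA (3.77, 3.44 and 3.92 TPM). COL1A1 had 3.72 and 2.91 TPM in Lat-M2 and 1.04, 1.37 and 1.16 TPM in PA. RGS5 had 4.77 and 3.81 TPM in Lat-M2 and was lowest in Lat-M1, at 1.91 and 2.14 TPM. The part of these markers in the results was not tested. Of 12 renal markers, 10 averaged at least 1 TPM, PAX8 and VIM included, whereas CA9, a marker of clear cell carcinoma, was at 0.156 TPM or less.

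CDKN1A encodes p21, the inhibitor of cyclin-dependent kinases through which p53 halts the cell cycle. It stood at 116 and 106 TPM in Lat-M2, 321 and 343 TPM in Lat-M1, and 188, 184 and 189.5 TPM in PA. The 3 groups did not overlap, with Lat-M2 lowest and Lat-M1 highest. The mean of Lat-M2 was 0.592 of that of PA, a log2 fold change of -0.75 ± 0.06 (SE), and -0.91 ± 0.03 after scaling. In Lat-M1 the mean was 1.77 times that of PA, and CDKN1A rose by a log2 fold change of 0.82 ± 0.06 (limma, Benjamini-Hochberg adjusted p = 6.07e-05; 0.64 ± 0.03 and adjusted p = 1.62e-05 after scaling). The mean of Lat-M2 was 0.334 of that of Lat-M1, the lowest such ratio among the members.

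MDM2, the ubiquitin ligase that marks p53 for degradation, stood at 162 and 146 TPM in Lat-M2, 224 and 237 TPM in Lat-M1, and 184, 167 and 183 TPM in PA. The groups kept the same order as for CDKN1A, but the highest Lat-M2 library was close to the lowest PA library. The log2 fold change of Lat-M2 against PA was -0.21 ± 0.07, and -0.36 ± 0.05 after scaling. In Lat-M1 it rose by 0.37 ± 0.07 against PA (limma adjusted p = 0.00478), or by 0.20 ± 0.05 after scaling (adjusted p = 0.0144). Exons of MDM2 overlap the listed noncoding entry RP11-611O2.3, which had 265 and 228 TPM in Lat-M2, 331 and 357 TPM in Lat-M1, and 286, 251 and 278 TPM in PA. Whether the submitters' quantification used strand is not stated, so reads of the 2 entries may be split between them and the level of MDM2 is uncertain.

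The ratio of CDKN1A to MDM2 within a library does not depend on scaling. It was 0.716 and 0.721 in Lat-M2, 1.43 and 1.45 in Lat-M1, and 1.02, 1.1 and 1.04 in PA. The libraries of a group lay close together and the groups were far apart, so the inducible arrest gene and the feedback gene differed by unequal factors in both Lat-M pairs.

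BTG2, an antiproliferative member of the BTG and TOB family, had 13.4 and 12.5 TPM in Lat-M2, 30.7 and 30.5 TPM in Lat-M1, and 15.6, 16.1 and 17.8 TPM in PA. Lat-M1 was clearly above the other groups, and both Lat-M2 libraries were below every PA library. The log2 fold change of Lat-M2 against PA was -0.33 ± 0.07 (-0.47 ± 0.05 scaled). In Lat-M1, BTG2 rose by 0.85 ± 0.07 against PA (limma adjusted p = 0.000109; 0.68 ± 0.05 and adjusted p = 0.000119 scaled), the largest rise among the members under both scalings. Its relative BTG1, also antiproliferative and on the list of p53 targets, had 116 and 103 TPM in Lat-M2, 37.7 and 37.4 TPM in Lat-M1, and 105, 111 and 103 TPM in PA. In Lat-M1, BTG1 fell by 1.48 on the log2 scale (SE 0.07, limma adjusted p = 5.8e-06), opposite to BTG2. The ratio of BTG2 to BTG1 was accordingly 0.115 and 0.121 in Lat-M2, 0.813 and 0.817 in Lat-M1, and 0.149, 0.145 and 0.172 in PA.

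CCNG1 encodes cyclin G1, which recruits phosphatase 2A to MDM2. Its level was 319 and 292 TPM in Lat-M2, 442 and 456 TPM in Lat-M1, and 290.2, 272 and 291 TPM in PA. It was the one member whose Lat-M2 libraries were above PA before scaling, by a margin smaller than the gap between the Lat-M2 libraries. After scaling it had 292 and 290.5 TPM in Lat-M2 and 313, 293 and 301 TPM in PA, so that the direction flipped. The log2 fold change of Lat-M2 against PA was 0.10 ± 0.06 before scaling and -0.05 ± 0.04 after it. In Lat-M1 it rose by 0.66 ± 0.06 against PA (limma adjusted p = 0.000173; 0.48 ± 0.04 and adjusted p = 0.000145 scaled).

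ZMAT3, a zinc finger protein that binds RNA, stood at 23.1 and 20.7 TPM in Lat-M2, 33.7 and 36.1 TPM in Lat-M1, and 24.2, 23.2 and 25.1 TPM in PA. The higher Lat-M2 library was only just below the lowest PA library. For Lat-M2 against PA, ZMAT3 gave a log2 fold change of -0.14 ± 0.07 (-0.28 ± 0.04 scaled). In Lat-M1, ZMAT3 rose by 0.51 ± 0.07 against PA (limma adjusted p = 0.00105; 0.34 ± 0.04 and adjusted p = 0.000498 scaled).

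SESN1 encodes sestrin 1, which restrains mTORC1 signalling and oxidative stress. It had 8.27 and 6.93 TPM in Lat-M2, 16.0 and 17.2 TPM in Lat-M1, and 11.4, 10.5 and 11.1 TPM in PA. As for CDKN1A, Lat-M2 was lowest and Lat-M1 highest, with no overlap. For Lat-M2 against PA, SESN1 gave a log2 fold change of -0.49 ± 0.09 (-0.63 ± 0.06 scaled). In Lat-M1, SESN1 rose by 0.55 ± 0.09 against PA (limma adjusted p = 0.00194; 0.39 ± 0.06 and adjusted p = 0.00236 scaled). The related sestrin gene SESN2, chosen after its values were seen, had 16.7 and 14.6 TPM in Lat-M2, 17.9 and 19 TPM in Lat-M1, and 15.6, 17.1 and 16.5 TPM in PA. SESN2 passed the test against PA in neither pair before scaling, with adjusted p of 0.583 in Lat-M2 and 0.14 in Lat-M1. After scaling its log2 fold change was -0.21 ± 0.05 in Lat-M2 (adjusted p = 0.041) and -0.01 ± 0.05 in Lat-M1 (adjusted p = 0.906).

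RRM2B encodes the p53-inducible small subunit of ribonucleotide reductase, which supplies deoxynucleotides for repair. Its level was 56.8 and 55.6 TPM in Lat-M2, 92.0 and 94.2 TPM in Lat-M1, and 72.7, 66.0 and 70.2 TPM in PA. The groups did not overlap. For Lat-M2 against PA, RRM2B gave a log2 fold change of -0.30 ± 0.06 (-0.46 ± 0.05 scaled), and in Lat-M1 RRM2B rose by 0.41 ± 0.06 (limma adjusted p = 0.00113; 0.24 ± 0.05 and adjusted p = 0.0111 scaled). RRM2, the small subunit used in S phase and chosen here after its values were seen, had 131 and 122 TPM in Lat-M2, 114 and 123 TPM in Lat-M1, and 141, 131 and 141 TPM in PA. In Lat-M1, RRM2 fell by 0.21 on the log2 scale (SE 0.06, limma adjusted p = 0.0332; -0.39 ± 0.04 and adjusted p = 0.000368 scaled), where RRM2B rose. In Lat-M2 against PA, RRM2 gave -0.12 ± 0.06 (adjusted p = 0.24) and fell after scaling (-0.27 ± 0.04, adjusted p = 0.00794), where RRM2B was also lower.

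TP53INP1, a stress-induced nuclear protein that takes part in p53 activation and autophagy, stood at 34.0 and 30.3 TPM in Lat-M2, 49.2 and 48.5 TPM in Lat-M1, and 46.6, 45.5 and 46.5 TPM in PA. Lat-M2 was clearly below both other groups, while Lat-M1 and PA were close. The log2 fold change of Lat-M2 against PA was -0.51 ± 0.06 (-0.66 ± 0.04 scaled). Lat-M1 against PA gave 0.08 ± 0.06 (limma adjusted p = 0.337) before and -0.09 ± 0.04 (adjusted p = 0.119) after scaling.

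FDXR, the mitochondrial ferredoxin reductase, was the least precisely measured member. It had 12.7 and 9.61 TPM in Lat-M2, 14.9 and 15.4 TPM in Lat-M1, and 12.7, 17.2 and 16.1 TPM in PA. The higher Lat-M2 library overlapped the PA libraries, and the coefficient of variation was 19.9% in Lat-M2 and 15.5% in PA. The log2 fold change was -0.43 ± 0.15 in Lat-M2 against PA (-0.57 ± 0.14 scaled) and -0.005 ± 0.15 in Lat-M1 against PA (limma adjusted p = 0.984; -0.17 ± 0.14 and adjusted p = 0.345 scaled).

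GDF15, a secreted cytokine of the TGF-beta superfamily that the ATF4 stress response also induces, had its own order. Its level was 42.9 and 41.1 TPM in Lat-M2, 32.8 and 37.1 TPM in Lat-M1, and 50.6, 60.1 and 57.8 TPM in PA. Lat-M1 was the lowest group and PA the highest, without overlap. For Lat-M2 against PA, GDF15 gave a log2 fold change of -0.41 ± 0.09 (-0.56 ± 0.07 scaled). In Lat-M1, GDF15 fell by 0.67 on the log2 scale (SE 0.09, limma adjusted p = 0.000914; -0.84 ± 0.07 and adjusted p = 0.000207 scaled), the one member that fell there. Of 16 genes on a list of ATF4 targets, 10 rose and 2 fell in Lat-M1 under both scalings (62.5% and 12.5%, against 33.2% and 11.6% of all tested genes before scaling and 24.0% and 23.0% after it). DDIT3, a transcription factor of that response, was one that fell, with 33.6 and 28.4 TPM in Lat-M1 and 54.8, 54.1 and 59.8 TPM in PA (log2 fold change -0.84 ± 0.08, limma adjusted p = 0.000215).

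**Figure D2:**
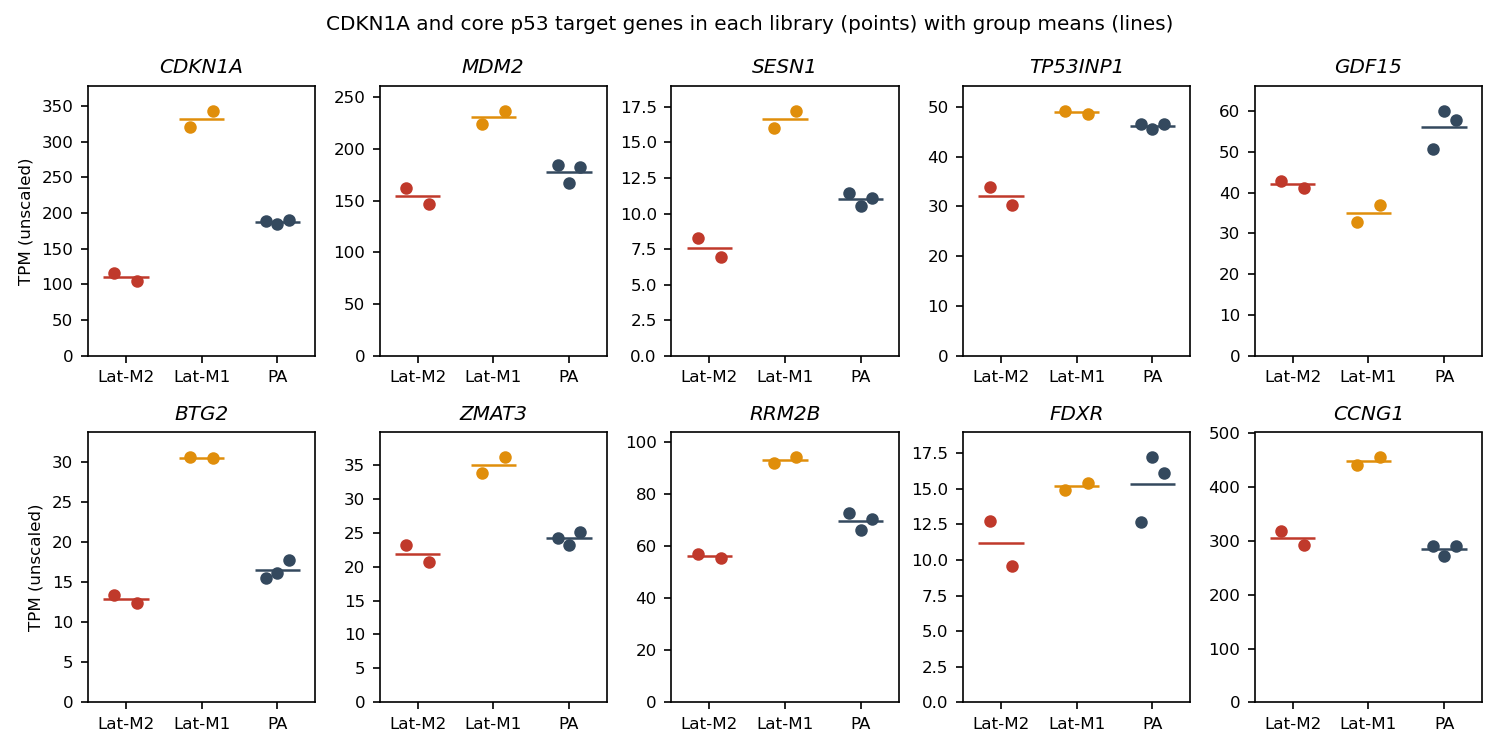
Unscaled TPM of each of the 10 members in the 7 libraries, 1 panel per gene, with points for libraries and lines for group means. CDKN1A stands at 116 and 106 TPM in Lat-M2, 321 and 343 in Lat-M1, and 188, 184 and 189.5 in PA, an order that GDF15 does not share.

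In Lat-M2 against PA, both Lat-M2 libraries were below every PA library for 8 of the 10 members before scaling, with CCNG1 above and FDXR overlapping. Over all tested genes the corresponding shares were 7.59% below and 42.2% above. After scaling all 10 members were below, where the shares over all tested genes were 23.9% below and 23.1% above. The median log2 fold change of the members was -0.37 before scaling, against 0.14 for all tested genes, and -0.52 after scaling, against -0.0005. Since this contrast chose the genes, these counts describe the choice.

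In Lat-M1 against PA, 7 of the 10 members rose and GDF15 fell at a limma adjusted p under 0.05, under both scalings, while TP53INP1 and FDXR did not pass. Over all tested genes 33.2% rose and 11.6% fell before scaling, and 24.0% rose and 23.0% fell after it. Without regard to the test, both Lat-M1 libraries were above every PA library for 8 members and below for 1, where 48.9% and 19.0% of all tested genes were, and after scaling for 7 and 2 members, where 33.6% and 33.5% were. The members' median log2 fold change was 0.46, against 0.16 for all tested genes, and 0.29 after scaling, against 0.004. No member's call changed under the alternatives tried for the members, which included scaling and leaving out each library in turn before scaling. The members' calls were not looked at with a library left out after scaling, or with the replicate block and scaling together.

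In Lat-M2 against Lat-M1, 9 members were below Lat-M1 without overlap and GDF15 was above it, under both scalings. The shares over all tested genes were 35.6% below and 32.8% above before scaling, and 37.0% below and 37.6% above after it. The members' median log2 fold change was -0.62, or -0.60 after scaling, against -0.01 and 0.01 for all tested genes. The lowest value was that of CDKN1A, -1.57 ± 0.07, followed by BTG2 at -1.18 ± 0.08 and SESN1 at -1.04 ± 0.10, and the highest was that of GDF15 at 0.26 ± 0.10.

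**Figure D3:**
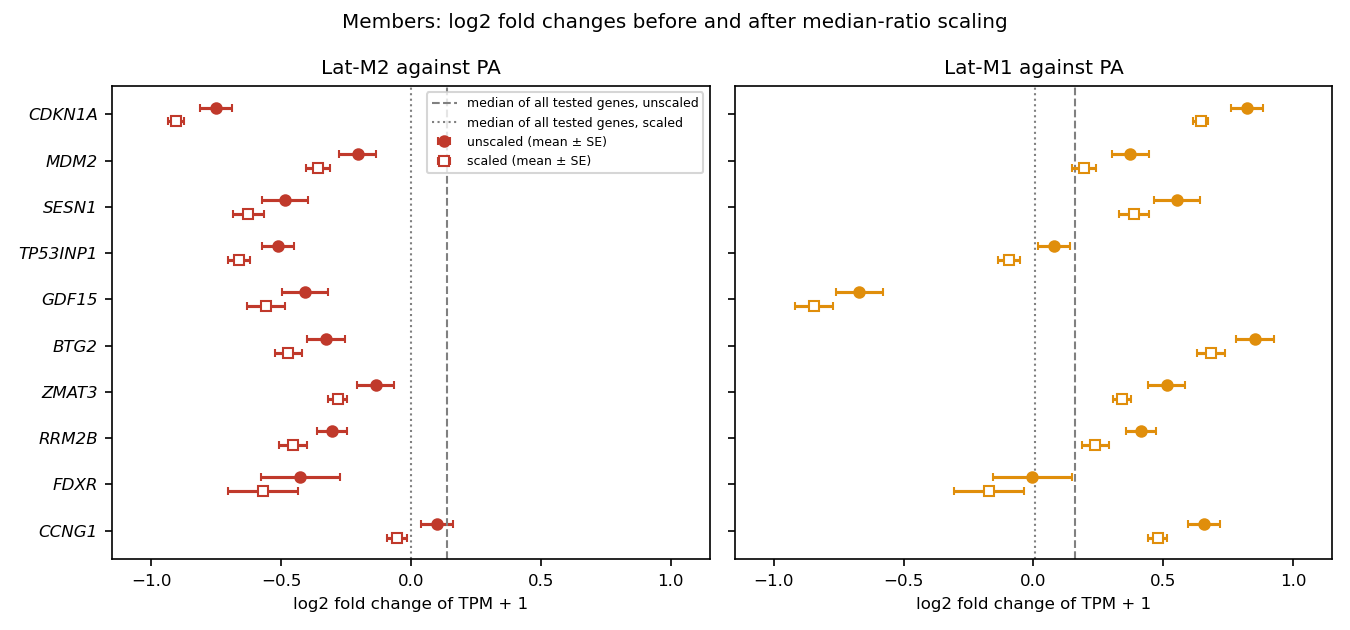
Log2 fold changes of TPM + 1 of the 10 members in Lat-M2 against PA (left) and Lat-M1 against PA (right), before scaling (filled) and after it (open), with standard errors. Dashed and dotted lines are the medians of all tested genes (0.14 and -0.0005 on the left, 0.16 and 0.004 on the right). The values on the left chose the genes. Scaling moves each value to the left in both comparisons.

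Among the 5 genes outside the members whose pattern was most like that of CDKN1A over the 7 libraries, by Pearson's r of log2(TPM + 1), were FHL2 (0.9987), DDB2 (0.9973), INHBA (0.9967) and FN1 (0.9957). The 5 were the highest of 16723 genes, the libraries of a group share their source, and the values are a description. FHL2, a LIM domain cofactor, had 46.7 and 44.9 TPM in Lat-M2, 99.4 and 104 TPM in Lat-M1, and 65.4, 64.8 and 65.9 TPM in PA. INHBA, the beta A subunit of inhibin and activin, spanned a wider range, with 8.56 and 7.29 TPM in Lat-M2, 96.1 and 102 TPM in Lat-M1, and 32.5, 29.9 and 32 TPM in PA. FN1, which encodes fibronectin, spanned the widest, with 20.6 and 18.6 TPM in Lat-M2, 317 and 350 TPM in Lat-M1, and 89.1, 90.3 and 95.5 TPM in PA. Among the members, SESN1 was nearest to CDKN1A (r = 0.9941, rank 7), followed by RRM2B (0.9901, rank 23), MDM2 (0.967, rank 99) and BTG2 (0.962, rank 131). ZMAT3, TP53INP1, CCNG1 and FDXR ranked 257, 628, 1910 and 3190, and GDF15 had an r of -0.3508. These values and ranks were taken before scaling. After scaling SESN1 was still the nearest member (r = 0.9946), followed by MDM2 (0.983), ZMAT3 (0.9822), RRM2B (0.9821) and BTG2 (0.9672). INHBA (0.9998) and FN1 (0.9995) then stood above FHL2 (0.9986) and DDB2 (0.9973).

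The wider pathway was described with lists that leave the 10 members out. Of 22 tested genes on the list of p53 regulators, 8 rose in Lat-M2 against PA before scaling (36.4%, against 12.7% of all tested genes), and after it 7 rose and 1 fell (31.8% and 4.55%, against 7.47% and 8.41%). In Lat-M1 against PA, 13 rose and 1 fell (59.1% and 4.55%, against 33.2% and 11.6%), and after scaling 11 rose and 4 fell (50% and 18.2%, against 24.0% and 23.0%). MDM4, a relative of MDM2 that inhibits p53 without degrading it, had 37.7 and 35.3 TPM in Lat-M2, 29.6 and 33.3 TPM in Lat-M1, and 24.3, 23.9 and 26.6 TPM in PA. It was highest in Lat-M2, where its log2 fold change against PA was 0.53 ± 0.08 (limma adjusted p = 0.00857; 0.39 ± 0.04 and adjusted p = 0.004 scaled). That call was lost without library Lat-M2-1 (adjusted p = 0.0627). In Lat-M1, MDM4 rose by 0.32 ± 0.08 against PA (adjusted p = 0.0123; 0.15 ± 0.04 and adjusted p = 0.0314 scaled), a call lost without library Lat-M1-2 (adjusted p = 0.108) or without the 4 structural RNAs (0.0944). TP53BP1, a DNA damage mediator, rose in both pairs under both scalings, with log2 fold changes against PA of 0.45 ± 0.08 in Lat-M2 (adjusted p = 0.0144) and 0.65 ± 0.08 in Lat-M1 (adjusted p = 0.000558). PPM1D, the phosphatase WIP1 that dampens p53 signalling, had 31.3 and 27 TPM in Lat-M2, 29.2 and 29.9 TPM in Lat-M1, and 31.3, 27.7 and 29.5 TPM in PA, and the groups overlapped. CDKN2A, whose ARF product restrains MDM2, was low at 3.58 and 3.65 TPM in Lat-M2, 3.34 and 3.83 TPM in Lat-M1, and 3.01, 2.57 and 3.29 TPM in PA, and passed the test in no comparison.

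Of 96 further p53 targets, 76 were tested. In Lat-M2 against PA, 5 rose and 6 fell before scaling, where 12.7% of all tested genes rose and 2.24% fell. After scaling 2 rose and 25 fell (32.9% of the 76), where 7.47% of all tested genes rose and 8.41% fell. This count depended on single libraries: with each left out in turn, 13 to 20 fell after scaling, the fewest without Lat-M2-1. In Lat-M1 against PA, 39 rose and 8 fell before scaling (51.3% and 10.5% of the 76, against 33.2% and 11.6% of all tested genes), and 33 rose and 16 fell after it (43.4% and 21.1%, against 24.0% and 23.0%). The shares that fell were near those of all tested genes. In Lat-M2 against Lat-M1, 7 rose and 37 fell, where 16.0% of all tested genes rose and 20.1% fell, and after scaling 11 rose and 39 fell, where 21.6% and 22.6% did. The medians of the 76 log2 fold changes after scaling were -0.16, 0.12 and -0.28 in these 3 comparisons, in that order, against -0.0005, 0.004 and 0.01 for all tested genes.

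**Figure D4:**
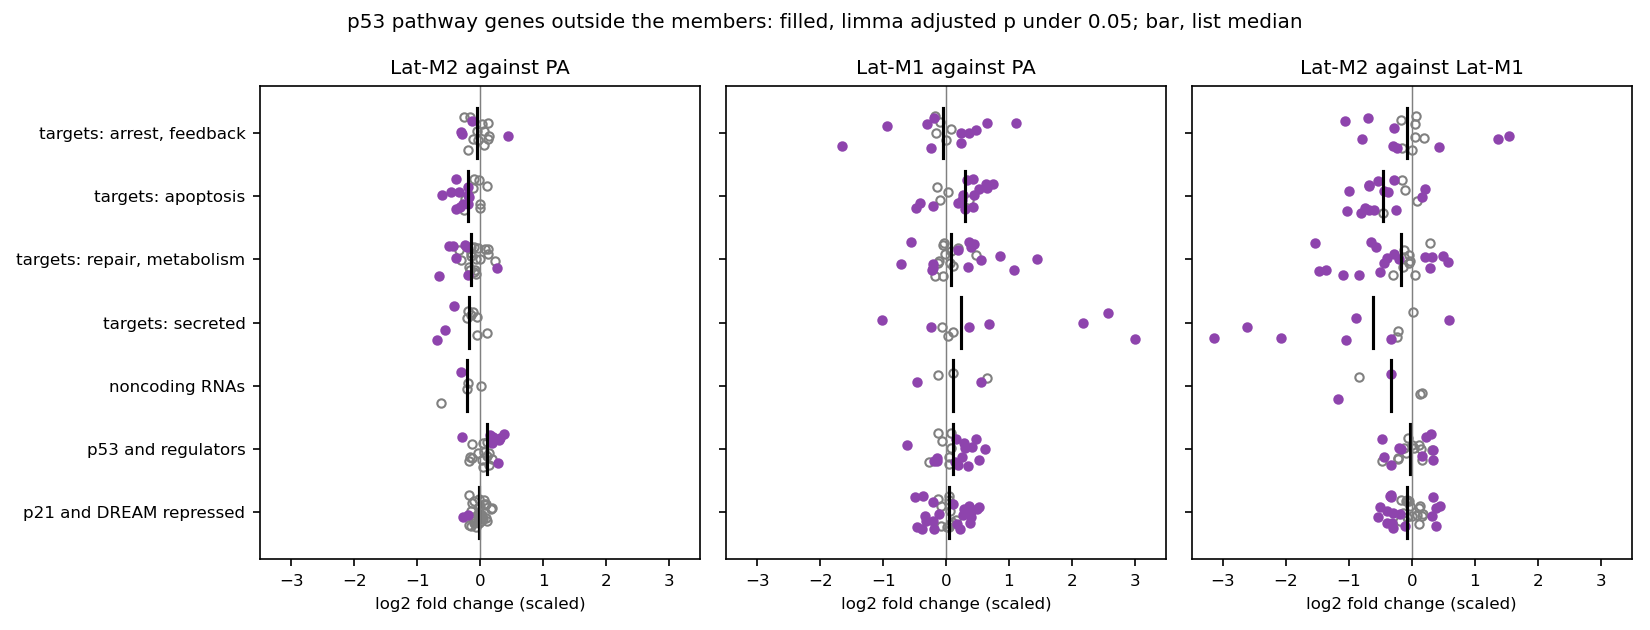
Log2 fold changes after scaling of p53 pathway genes outside the members, by list, in Lat-M2 against PA, Lat-M1 against PA and Lat-M2 against Lat-M1. Each point is a gene, filled where the limma adjusted p is under 0.05, and bars are list medians. Among the 19 apoptosis targets, 11 fell in the left panel (57.9%, against 8.41% of all tested genes). In the middle panel 12 rose and 3 fell (63.2% and 15.8%, against 24.0% and 23.0%). In the right panel 13 fell and 2 rose (68.4% and 10.5%, against 22.6% and 21.6%).

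The calls of the apoptosis targets in Lat-M2 against PA differed between scalings. Of 19 tested, 1 rose and 1 fell before scaling (5.26% each, against 12.7% and 2.24% of all tested genes), whereas 11 fell after it (57.9%, against 8.41%). EDA2R, a death receptor of the TNF receptor family, had 12.8 and 10.8 TPM in Lat-M2, 24.3 and 27.1 TPM in Lat-M1, and 16, 15.4 and 18.7 TPM in PA. Its fall in Lat-M2 was -0.47 ± 0.11 on the log2 scale (limma adjusted p = 0.0327; -0.61 ± 0.07 and adjusted p = 0.00489 scaled), and the unscaled call was lost without any of 6 of the 7 libraries in turn, with adjusted p up to 0.0996. FAS, the death receptor of the same family, had 74.6 and 73.1 TPM in Lat-M2, 113 and 117 TPM in Lat-M1, and 81.7, 76.4 and 82.4 TPM in PA. It did not pass in Lat-M2 against PA before scaling (-0.12 ± 0.06, adjusted p = 0.198) and fell after it (-0.27 ± 0.04, adjusted p = 0.0129) and rose in Lat-M1 under both scalings (0.51 ± 0.06, adjusted p = 0.000357 before it). BAX, the BCL2 family effector, had 70 and 69.1 TPM in Lat-M2, 79.4 and 88.9 TPM in Lat-M1, and 77.4, 85.9 and 83.1 TPM in PA. BAX fell in Lat-M2 against PA after scaling (-0.39 ± 0.06, adjusted p = 0.00879, against 0.0652 before it), and in Lat-M1 it did not pass (0.03 ± 0.07, adjusted p = 0.735; -0.14 ± 0.06 and 0.084 scaled). In Lat-M1, 14 of the 19 rose and 2 fell (73.7% and 10.5%, against 33.2% and 11.6%), and AEN, an exonuclease induced by p53, was among those that rose with 43.3 and 44.2 TPM in Lat-M1 against 24.3, 25 and 24.7 TPM in PA (0.80 ± 0.05, adjusted p = 3.52e-05).

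Repair and metabolism targets numbered 26. In Lat-M2 against PA, 3 rose and 3 fell before scaling (11.5% each, against 12.7% and 2.24% of all tested genes), and 1 rose and 7 fell after it (3.85% and 26.9%, against 7.47% and 8.41%). DDB2, which recognises ultraviolet damage in DNA, had 61.4 and 57.6 TPM in Lat-M2, 127 and 135 TPM in Lat-M1, and 82.6, 87.1 and 85.3 TPM in PA. DDB2 fell in Lat-M2 by a log2 change of -0.51 ± 0.06 (limma adjusted p = 0.00361) and rose in Lat-M1 by 0.62 ± 0.06 (adjusted p = 0.00019), under both scalings. POLH, the polymerase that copies past ultraviolet damage, rose in Lat-M1, with 74.2 and 76.6 TPM there and 31.2, 30.1 and 31.5 TPM in PA (1.26 ± 0.07, adjusted p = 1.59e-05). In Lat-M2, at 28.1 and 24.2 TPM, POLH fell after scaling (-0.39 ± 0.04, adjusted p = 0.00281), against an adjusted p of 0.0657 before it. APOBEC3C, a cytidine deaminase, fell in Lat-M2 (-0.36 ± 0.08, adjusted p = 0.0263; -0.50 ± 0.06 and 0.00495 scaled), and its unscaled call was lost without Lat-M2-1, Lat-M2-2 or any PA library (adjusted p up to 0.0815). In Lat-M1 it rose by 1.03 ± 0.08 (adjusted p = 5.57e-05). The genes on the list that rose in Lat-M2 before scaling were ALDH4A1, PRKAB1 and DRAM1. ALDH4A1 and PRKAB1 had log2 fold changes there of 0.37 ± 0.09 (adjusted p = 0.044, and 0.151 after scaling) and 0.41 ± 0.07 (adjusted p = 0.0113, and 0.0131 after scaling). DRAM1, chosen after its values were seen, had 0.27 (adjusted p = 0.047, and 0.136 after scaling). The unscaled call of PRKAB1 was lost without Lat-M2-1 (adjusted p = 0.068), and that of ALDH4A1 without any 1 library (0.0603 to 0.215).

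Among 10 tested secreted targets, 2 fell in Lat-M2 against PA before scaling and 3 after it (20% and 30%, against 2.24% and 8.41% of all tested genes). TGFA, a ligand of the EGF receptor, had 54.2 and 48.8 TPM in Lat-M2, 65.6 and 66.8 TPM in Lat-M1, and 70.4, 66.3 and 70.4 TPM in PA. It fell in Lat-M2 against PA under both scalings (log2 fold change -0.42 ± 0.06, limma adjusted p = 0.0103, and 0.000586 after scaling). In Lat-M1, TGFA did not pass before scaling (-0.06 ± 0.06, adjusted p = 0.488) and fell after it (-0.235 ± 0.039, adjusted p = 0.00346). The widest ranges belonged to genes that rose in Lat-M1. THBS1, which encodes thrombospondin 1, had 205 and 189 TPM in Lat-M2, 1220 and 1260 TPM in Lat-M1, and 181, 179 and 189 TPM in PA. IGFBP3, which binds insulin-like growth factors, had 2.42 and 2.53 TPM in Lat-M2, 30 and 31.6 TPM in Lat-M1, and 2.81, 2.51 and 2.37 TPM in PA. Neither passed the test in Lat-M2 against PA (log2 fold changes of 0.10 ± 0.06 and -0.03 ± 0.09, adjusted p of 0.254 and 0.818), and in Lat-M1 the log2 fold changes were 2.75 ± 0.06 (adjusted p = 1.38e-07) and 3.16 ± 0.09 (adjusted p = 5.75e-07).

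Of 16 tested arrest and feedback targets outside the members, 1 rose and none fell in Lat-M2 against PA before scaling (6.25% and 0%, against 12.7% and 2.24% of all tested genes). After scaling 1 rose and 3 fell there (6.25% and 18.8%, against 7.47% and 8.41%). In Lat-M1 against PA, 6 rose and 2 fell before scaling (37.5% and 12.5%, near the 33.2% and 11.6% of all tested genes), and 6 rose and 5 fell after it (37.5% and 31.2%, against 24.0% and 23.0%). PLK2, a polo-like kinase, had 401 and 350 TPM in Lat-M2, 784 and 807 TPM in Lat-M1, and 321, 323 and 325 TPM in PA, and rose in Lat-M1 (log2 fold change 1.30 ± 0.07, limma adjusted p = 9.3e-06). KLF4, a transcription factor, went the opposite way to CDKN1A in both pairs. It had 40 and 34.3 TPM in Lat-M2, 13.7 and 14 TPM in Lat-M1, and 24.4, 24 and 24.2 TPM in PA. KLF4 rose in Lat-M2 (0.59 ± 0.07, adjusted p = 0.00452) and fell in Lat-M1 (-0.76 ± 0.07, adjusted p = 0.000196), under both scalings. Of 5 tested noncoding RNAs, LINC01021 was low throughout, with 0.709 and 0.424 TPM in Lat-M2, 2.11 and 3.27 TPM in Lat-M1, and 1.29, 1.29 and 1.25 TPM in PA. It rose in Lat-M1 (0.68 ± 0.19, adjusted p = 0.0246; 0.56 ± 0.17 and 0.0335 scaled), a call lost without Lat-M1-2 (adjusted p = 0.198) or any PA library (up to 0.0576), and in Lat-M2 the value was -0.54 ± 0.19 (adjusted p = 0.1).

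**Figure D5:**
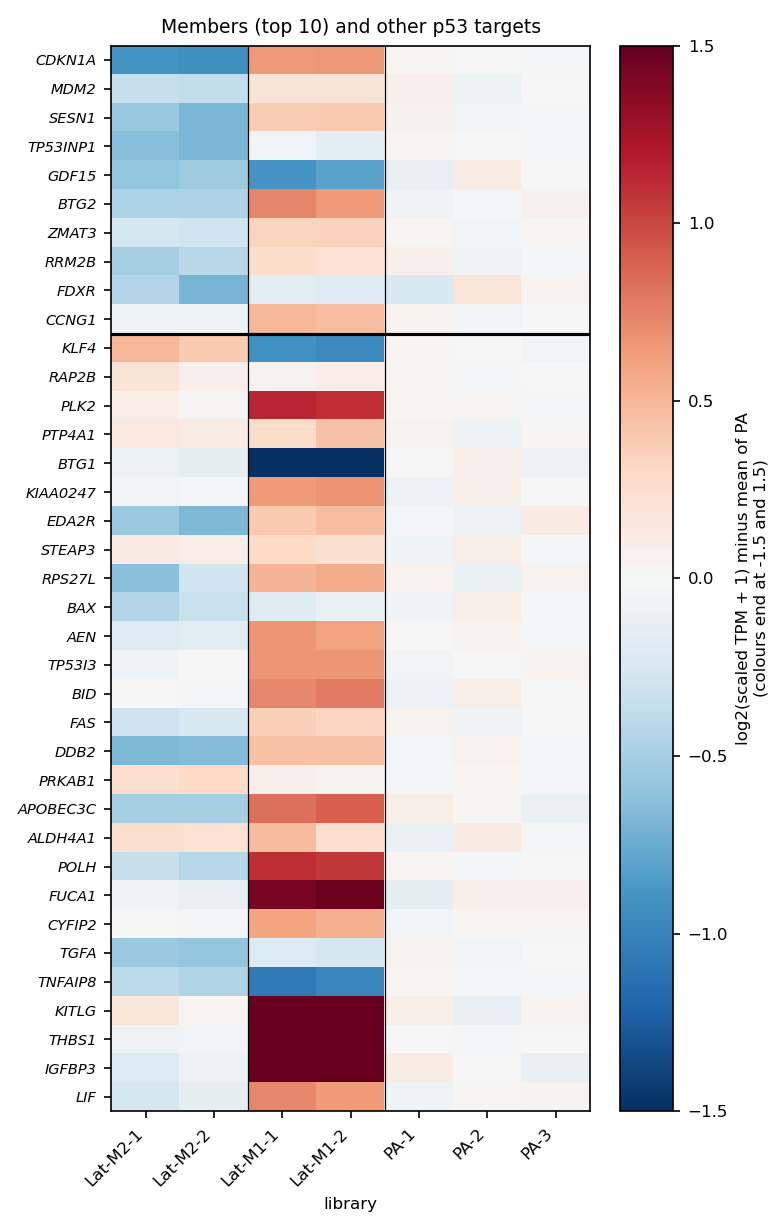
Difference of log2(scaled TPM + 1) from the PA mean in each library, for the 10 members (above the line) and for named p53 targets outside them, among those with the smallest p in each list (below it). Columns run from Lat-M2 over Lat-M1 to PA. DDB2 and APOBEC3C are below PA in Lat-M2 and above it in Lat-M1, as CDKN1A is, while KLF4 has the reverse order. GDF15, TNFAIP8 and TGFA are among the genes below PA in both pairs.

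The genes that p21 acts on were described last. A list of 33 cell cycle genes repressed through p21 and the DREAM complex had 4 that rose in Lat-M2 against PA before scaling. None fell, so that the shares were 12.1% and 0%, against 12.7% and 2.24% of all tested genes. After scaling 2 fell (6.06%, against 8.41%) and none rose (0%, against 7.47%). At an unadjusted limma p under 0.05, 3 were higher and 8 lower after scaling, and no share over all tested genes was computed at that threshold. The 12.1% that rose before scaling and the 6.06% that fell after it were near the shares of all tested genes. In Lat-M1, 18 rose and 4 fell (54.5% and 12.1%, against 33.2% and 11.6%), and after scaling 12 rose and 10 fell (36.4% and 30.3%, against 24.0% and 23.0%). Those that rose in Lat-M2 were CDC25C, KIF23, MCM2 and CCNB2, at log2 fold changes of 0.24 to 0.33. Each call was lost after scaling, without a filter, with the replicate block and with the compared groups alone. Each was also lost without Lat-M2-1, either Lat-M1 library, PA-2 or PA-3, and those of KIF23, MCM2 and CCNB2 without PA-1 too. MKI67, the proliferation marker Ki-67, had 110 and 98.8 TPM in Lat-M2, 106 and 117 TPM in Lat-M1, and 90, 89 and 95.8 TPM in PA. MKI67 rose in Lat-M1 (0.28 ± 0.07, adjusted p = 0.0173; 0.11 ± 0.03 and 0.0423 scaled), a call lost without Lat-M1-2 (adjusted p = 0.139), without PA-2 (0.0505) or without the 4 structural RNAs (0.176), and in Lat-M2 it did not pass (0.19 ± 0.07, adjusted p = 0.127).

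The other inhibitors of the p21 family differed from CDKN1A. CDKN1B, which encodes p27, had 60.9 and 52.1 TPM in Lat-M2, 41 and 41.5 TPM in Lat-M1, and 48.5, 51.3 and 50 TPM in PA. It fell in Lat-M1 (log2 fold change -0.27 ± 0.07, limma adjusted p = 0.0222; -0.44 ± 0.05 and 0.00057 scaled), and the unscaled call was lost without either Lat-M1 library, PA-2 or PA-3 (adjusted p up to 0.103). CDKN1C, which encodes p57, had 2.47 and 2.87 TPM in Lat-M2, 0.364 and 0.341 TPM in Lat-M1, and 1.39, 1.35 and 1.07 TPM in PA. It was highest in Lat-M2 and lowest in Lat-M1, the reverse of CDKN1A. CDKN1C fell in Lat-M1 (-0.74 ± 0.16, adjusted p = 0.0087), while in Lat-M2 the value was 0.70 ± 0.16 (adjusted p = 0.0338; 0.60 ± 0.16 and 0.0499 scaled), a call lost without any 1 library (adjusted p of 0.0543 to 0.114). Lat-M2 against Lat-M1 gave 0.44 ± 0.08 for CDKN1B (adjusted p = 0.00529) and 1.44 ± 0.18 for CDKN1C (adjusted p = 0.000899). CCND1, the G1 cyclin D1, had 224 and 185 TPM in Lat-M2, 383 and 409 TPM in Lat-M1, and 217, 220 and 226 TPM in PA, and rose in Lat-M1 (0.84 ± 0.08, adjusted p = 0.000235). In Lat-M2 against PA, CCND1 did not pass before scaling (-0.12 ± 0.08, adjusted p = 0.367) and fell after it (-0.27 ± 0.05, adjusted p = 0.0159). CDKN2B, which encodes the CDK4 inhibitor p15, rose in both pairs, by 0.48 ± 0.09 in Lat-M2 (adjusted p = 0.0163, lost without Lat-M2-1 at 0.0568) and by 1.17 ± 0.09 in Lat-M1 (adjusted p = 5.1e-05).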

How the data were processed

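RNA-seq libraries of 769-P cells were analysed (2 Lat-M2, 2 Lat-M1, 3 PA). Per the labels' protocols, total RNA (RNeasy) went into TruSeq RNA v2 or NEBNext Ultra libraries, without a statement of the kit used for each. Per the submitters' processing notes, TopHat2 2.2.4 and hg19 were used; the quantifier, annotation and strand setting are not given in the sources used here. The deposited values were taken as TPM because each library sums to 1000000 and because the smallest values of 7767 low genes decrease with the length of the transcript (Spearman's rho -0.94). TPM keeps no read counts, so the depth is unknown and no counting interval is given.

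Each symbol was read from its identifier with the highest mean (161 symbols had several). Genes that averaged 1 TPM or more were tested as log2(TPM + 1) with limma 3.58.1 (R 4.3.3; trend and robust options) in a fit of all 3 groups, which share 1 estimate of spread, with Benjamini-Hochberg adjustment over 16724 genes at 0.05. Scaled values were divided by each library's median ratio, and the scaled fit used the same genes. Errors beside fold changes are standard errors. The pipeline was tested on simulated data. Alternatives were scaling, leaving out 4 structural RNAs, a pseudocount of 0.1, no filter or a minimum mean of 5 TPM, the replicate number as a block, limma without its options, the compared groups alone, and each library left out.

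The members and lists were chosen with earlier results of these data known. Of 197 list genes, 7 are not in the files by symbol. Named outside the members were MDM4, PPM1D, CDKN2A, CDKN1B, CDKN1C and MKI67, up to 4 genes per list with the smallest p in Lat-M2 and in Lat-M1 against PA, and the 5 genes most like CDKN1A; any other gene was chosen after its values were seen. Some genes that this rule selects are not reported here. Overlapping genes were looked up in GENCODE v29. Promoters are RefSeq windows of GRCh38.p14, and 8 members had windows.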

Additional observations from a re-analysis of the deposited data

How the results depend on the processing

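Scaling by the median ratio moved the members' median log2 fold change to -0.515 in Lat-M2 against PA (main value -0.368) and to 0.29 in Lat-M1 against PA (main 0.464), and leaving out the 4 structural RNAs moved it to -0.474, 0.271 and, in Lat-M2 against Lat-M1, -0.533 (main -0.621). CCNG1 in Lat-M2 against PA turned to -0.0534 and -0.0046 under these 2 settings. Without structural RNAs, BAX turned to -0.164 (adjusted p = 0.0456) and E2F4 to -0.0123 in Lat-M1 against PA. With 1 library left out, the medians ranged from -0.414 to -0.284, from 0.431 to 0.496 and from -0.698 to -0.544; a lone library was assumed to vary like the other groups.

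Genes called in Lat-M2 against PA (2494) numbered 1529 without a filter, 1518 with these groups alone, 943 with the replicate block, 686 with the block and scaling (chosen after seeing the data), and 506 (without Lat-M2-1) to 3191 with 1 library left out. The calls of the 76 p53 targets there (11) numbered 27 scaled, 19 without structural RNAs, 20 at a minimum mean of 5 TPM, 5 without a filter, 4 with the block, 6 without limma's options or with these groups alone, and 5 to 10 with 1 library left out; scaled with 1 left out (chosen after seeing the data), 14 to 22 targets (20 without PA-1) and 894 to 2010 genes were called (894 and 1136 without a Lat-M2 library, 1558 and 1571 without a Lat-M1 library, 1491 without PA-3). In Lat-M1 against PA, leaving out 1 library gave 4721 (without Lat-M1-2) to 7925 of 7499 genes and 33 to 47 targets (main 47), and 38 to 49 targets after scaling. In Lat-M2 against Lat-M1 it gave 3838 (without Lat-M1-2) to 5830 of 6022 genes and 30 to 43 targets (main 44), and after scaling 5257 to 7706 genes and 37 to 56 targets. The cause of these shifts was not tested. All 150 alternative values of the members in Lat-M1 against PA kept their direction and side of the threshold, except that values past the threshold under no setting were given no direction. These values left libraries out only before scaling and did not include the replicate block with scaling. Libraries with the same last number did not deviate together (correlations of -0.082 to 0.031 over 6 pairs). Deviations within a group of 2 libraries mirror each other, so the 6 pairs are not all separate checks. No pairing by last number was seen, and the replicate block was not read as one. TPM keeps no depth, so precision rests on 2 or 3 libraries a group.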
